A study of Mus musculus with 12 samples.

Results

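The Ifi200 cluster on mouse chromosome 1 holds the genes of the PYHIN family, and 10 of its genes were examined: Aim2, Ifi213, Ifi209, Ifi208, Ifi207, Ifi204, Mndal, Ifi211, Ifi203 and Ifi205. They were chosen by symbol among the 55335 genes of each table, and the cluster was picked because the expression of Ifi208 was strongly lower in KOLPS than in WTLPS. The values of all 10 members in that comparison, and in any other that uses the KOLPS libraries, are therefore given as a description with no test. WTLPS against WT and KO against WT were tested.

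PYHIN proteins combine a pyrin domain, which binds other pyrin domains, with a HIN domain, which binds double-stranded DNA, although some members lack one of these domains. AIM2 senses DNA in the cytosol and assembles an inflammasome with the adaptor ASC and caspase-1. IFI204 is the mouse protein usually compared with human IFI16, a DNA sensor that signals through STING to induce type I interferon. In myeloid cells, many Ifi200 genes are themselves induced by interferon, which LPS elicits through the receptor TLR4.

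RNA-seq was carried out on 12 libraries of BMDCs, dendritic cells grown from C57BL/6 bone marrow with GM-CSF for 6 days, in 4 groups with 3 biological replicates each. WT cells came from CreER mice and received no LPS, and WTLPS cells had the same genotype and were exposed to 100 ng/ml of LPS for 3 h. KO cells came from CreER;CTCF fl/fl mice and received no LPS, and KOLPS cells were KO cells given LPS at the same dose for the same time. The CreER transgene, which all 4 groups carried, was driven from the Rosa26 locus, and 4-OH tamoxifen was added to the KO cultures on the first day to delete Ctcf, the gene of the chromatin architectural protein CTCF. Whether WT cultures also received it is not clear from the sources used here, so an effect of the agent and of the deletion cannot be told apart. The methods of the study state that floating cells were harvested from cultures of adult mice of both sexes and selected for CD11c.

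In GENCODE M21 on mm10, the members lay within 681 kb, chr1:173350879-174031810. That interval contained 22 annotated genes, of which 14 were protein-coding. Aim2 was the leftmost member, on the plus strand, and spanned 115.2 kb. Ifi209 and Ifi208 were also on the plus strand, whereas Ifi213, Ifi207, Ifi204, Mndal, Ifi211, Ifi203 and Ifi205 were on the minus strand. Ifi208 (chr1:173673675-173698395) was separated from Ifi209 by 25746 bases and from Ifi207 by 25031 bases. Mndal was annotated over 93.4 kb that overlapped Ifi211 and Ifi203 on the same strand, and Aim2 overlapped Cadm3 on the opposite strand.

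Promoter sequences are shown first for Ifi213 and Ifi208, because these promoters were nearly the same while the RNA levels were not, and for Ifi209 and Aim2, which held another motif. Each is the RefSeq window of 300 bases, from 250 before to 50 after the start site, on GRCm38.p6 and read 5′ to 3′ on the strand of the gene. Capitals mark the ISRE core GAAANNGAA, the element bound by interferon-activated factors such as IRF9, in Ifi213 and Ifi208, and the NF-kB motif GGGANNTTC in Ifi209 and Aim2, with both strands searched.
Ifi213, chr1:173599223-173599522, minus strand: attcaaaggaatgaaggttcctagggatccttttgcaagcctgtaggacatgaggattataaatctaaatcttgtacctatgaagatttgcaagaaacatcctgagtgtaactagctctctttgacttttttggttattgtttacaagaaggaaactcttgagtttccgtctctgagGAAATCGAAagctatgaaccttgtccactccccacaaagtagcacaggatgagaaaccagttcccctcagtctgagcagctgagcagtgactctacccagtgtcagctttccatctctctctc
Ifi208, chr1:173673415-173673714, plus strand: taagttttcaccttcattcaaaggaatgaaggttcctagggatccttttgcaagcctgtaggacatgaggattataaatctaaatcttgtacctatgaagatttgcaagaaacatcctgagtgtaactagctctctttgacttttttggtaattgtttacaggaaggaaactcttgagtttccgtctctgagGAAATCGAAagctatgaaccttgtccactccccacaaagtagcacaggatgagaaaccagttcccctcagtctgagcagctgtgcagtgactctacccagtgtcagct
Ifi209, chr1:173630609-173630908, plus strand: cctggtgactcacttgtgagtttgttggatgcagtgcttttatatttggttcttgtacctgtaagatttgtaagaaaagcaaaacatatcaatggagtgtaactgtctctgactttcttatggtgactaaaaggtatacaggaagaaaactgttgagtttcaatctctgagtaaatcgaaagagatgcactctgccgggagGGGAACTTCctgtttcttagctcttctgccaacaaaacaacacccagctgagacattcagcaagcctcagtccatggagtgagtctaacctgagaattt
Aim2, chr1:173420354-173420653, plus strand: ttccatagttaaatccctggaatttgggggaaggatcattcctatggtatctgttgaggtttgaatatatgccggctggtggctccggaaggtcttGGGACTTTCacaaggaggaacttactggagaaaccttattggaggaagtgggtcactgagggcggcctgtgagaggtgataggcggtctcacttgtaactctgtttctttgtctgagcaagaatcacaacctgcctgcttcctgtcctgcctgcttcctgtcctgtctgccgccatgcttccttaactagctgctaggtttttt

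When the Ifi213 and Ifi208 promoters were laid on each other at the ISRE core without gaps, 282 of 285 bases were identical (98.9%). The core began 73 bases before the start site of Ifi213 and 58 bases before that of Ifi208. Mndal has 2 start sites in the table, and its windows at site 1 and site 2 held different cores. For the other members that held a core before the start site, 15 bases on either side of it are shown for comparison, again on the strand of the gene and with the core in capitals.
Ifi207, chr1:173741827-173741865: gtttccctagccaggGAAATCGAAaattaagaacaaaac
Mndal (start site 1), chr1:173879988-173880026: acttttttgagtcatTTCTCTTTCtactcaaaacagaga
Mndal (start site 2), chr1:173880200-173880238: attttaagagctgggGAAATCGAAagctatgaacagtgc
Ifi211, chr1:173913060-173913098: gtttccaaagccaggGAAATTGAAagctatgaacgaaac
Ifi203, chr1:173942504-173942542: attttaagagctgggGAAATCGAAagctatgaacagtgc
Ifi205, chr1:174031866-174031904: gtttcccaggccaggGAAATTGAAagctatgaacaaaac

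The stretches of Mndal at start site 2 and of Ifi203 were the same in all 39 bases, as were those of Ifi213 and Ifi208. The cores before the start site on the strand of the gene read GAAATTGAA in Ifi211 and Ifi205 and GAAATCGAA in Ifi213, Ifi208, Ifi207, Ifi203 and Mndal at start site 2. In Mndal at start site 1 the core lay on the other strand and reads TTCTCTTTC on the strand of the gene. That stretch shared 13 of 39 bases with that of Ifi203. Ifi205 held another core on the other strand after its start site, which reads TTCACTTTC on the strand of the gene. Ifi204 had no entry in the RefSeq table. Of the 9 members with an entry, 7 held an ISRE core in a window. Of their 11 windows, 8 held a core, compared with 8.56% of all 32851 promoters searched, and that of Ifi203 at start site 2 did not. Aim2 and Ifi209 held none and were the 2 members with the NF-kB motif, which 3.94% of all promoters held. No member promoter held the letters of the GAS element TTCNNNGAA (8.3% of all promoters) or of a CTCF core CCANNAGGG (5.98%). These matches describe the windows and do not show that a factor bound there.

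Depth was 12769773 to 16586334 expected counts per library, estimates by RSEM that split a read between the genes it fits. These estimates were scaled by edgeR's TMM method to normalized counts and were rounded for the fit. In it, 14008 genes passed a filter on low counts, including all 10 members. The KO and KOLPS libraries held fewer than 10 counts of Ifi208 each, so this gene passed through its WT and WTLPS libraries, of which those of WTLPS alone would suffice. Ctcf, the targeted gene, had 1004 ± 41.1 normalized counts in WT, 816 ± 70.3 in WTLPS, 549 ± 29.0 in KO and 539.9 ± 20.5 in KOLPS (SD, n = 3), with no overlap between genotypes. Ctcf RNA in KO averaged 54.7% of that in WT, and the files do not show which part of the transcript the remaining reads came from. Of 10 markers fixed for BMDCs, such as Itgax and Cd74, all were detected, and Cd3e, a T cell marker, averaged at most 1.82 normalized counts in a group.

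The first question was how the cluster responded to LPS in WT BMDCs. All 9 members other than Ifi208 were upregulated, between 2.27-fold for Aim2 and 101.6-fold for Ifi205. Ifi208 is given beside them as a value only, because its WTLPS libraries took part in its selection. Of all genes tested, 12.6% were called higher in WTLPS than in WT and 9.99% lower, at an adjusted p under 0.05 and a fold above 2 in the quasi-likelihood test of edgeR, adjusted by the Benjamini-Hochberg method. None of the 9 was called lower. The median log2 ratio was 3.70 over the 10 members and -0.02 over all genes tested. In none of the 9 did WT and WTLPS libraries overlap, but the share of all genes tested without such overlap was not counted.

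Among the members with known DNA-sensing roles, Aim2 had the smallest response of the cluster. Its normalized counts were 1004, 899.8 and 922 in WT and 2298, 2041 and 2073 in WTLPS, a log2 fold change of 1.18 (SE 0.07, edgeR adjusted p = 2.9e-09). On log2(TPM + 1), where the median of all genes stood at -0.53, limma gave 0.52 for Aim2, under the fold cutoff. The DNA sensor Ifi204 had 1069.8, 991 and 1119 normalized counts in WT and 17630.5, 12188 and 11258 in WTLPS, a log2 fold change of 3.69 (SE 0.17, edgeR adjusted p = 1.5e-10). Library 1 of WTLPS stood above the other 2 in both genes, and in all 10 members. Mndal, named for its likeness to the human myeloid nuclear differentiation antigen MNDA, had 939, 875.5 and 950.1 normalized counts in WT and 11705, 9578 and 9284 in WTLPS, a log2 fold change of 3.47 (SE 0.09, edgeR adjusted p = 5.7e-13).

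The largest response was that of Ifi205, which rose from 95.6, 80.2 and 89.0 normalized counts in WT to 11225, 8068 and 7614 in WTLPS (log2 fold change 6.66, SE 0.19, edgeR adjusted p = 9.2e-13). Ifi213 followed, with 44.9, 26.8 and 42.5 normalized counts in WT and 1419.6, 1145 and 1039 in WTLPS (log2 fold change 4.98, SE 0.16, edgeR adjusted p = 4.9e-12). Ifi208, whose promoter is almost that of Ifi213, responded by a similar factor from a lower level. It had 9.33, 9.33 and 15.2 normalized counts in WT and 394, 368 and 279.7 in WTLPS, a log2 fold change of 4.92 (SE 0.25).

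Ifi211, Ifi209 and Ifi203 had intermediate responses. Ifi211 rose from 496 ± 34.0 to 12655 ± 1595 normalized counts (SD, n = 3), Ifi209 from 1132 ± 67.4 to 14773 ± 2207 and Ifi203 from 949 ± 36.7 to 11480.2 ± 3643. Their log2 fold changes were 4.67 (SE 0.11), 3.71 (SE 0.10) and 3.60 (SE 0.20). Ifi207 rose least after Aim2, from 1554 ± 52.1 to 8243 ± 1519 normalized counts (log2 fold change 2.41, SE 0.12). These 4 genes had adjusted p between 2.9e-13 and 1.3e-09 in edgeR's quasi-likelihood test. The plot of normalized counts by library shows the 4 groups for every member.

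**Figure D1:**
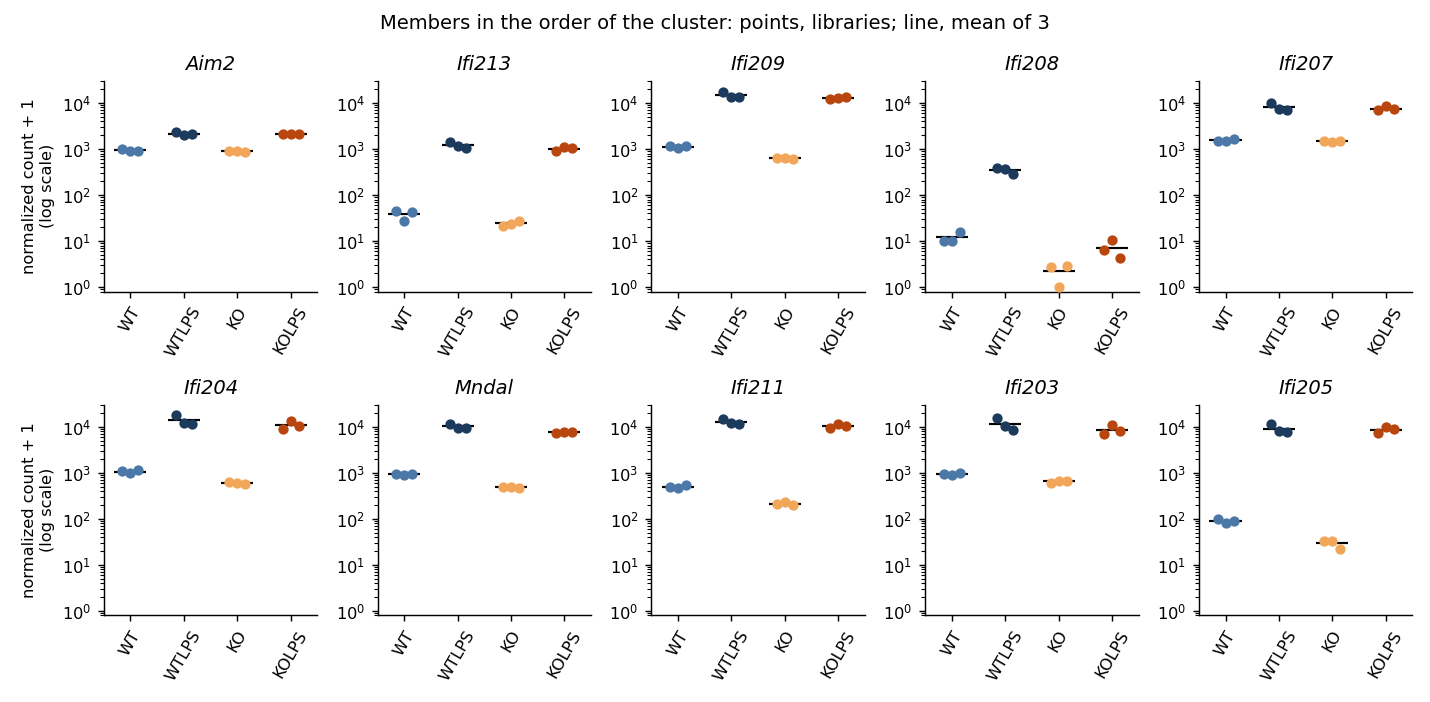
Normalized counts plus 1, on a log axis, of the 10 members in each of the 12 libraries, in the order of the genes along the cluster, with points for libraries and lines for the means of 3. WTLPS lies above WT in every panel, and Ifi208 is the panel in which KOLPS (3.29 to 9.57 normalized counts) is far below WTLPS (279.7 to 393.6).

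The next question was whether loss of CTCF changed the cluster in unstimulated BMDCs. In KO compared with WT, 8 of the members were downregulated and none was upregulated. Of all genes tested, 17.2% were called lower and 17.3% higher, at an adjusted p under 0.05 and a fold above 1.3. The median log2 ratio was -0.84 over the members and -0.01 over all genes tested. Every member had a fitted log2 fold change below 0, and DESeq2 called none of them higher either. Aim2 and Ifi207, the members with the smallest LPS responses, were not called.

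Aim2 had 923, 907 and 878 normalized counts in KO, within the range of its WT libraries or just below it (log2 fold change -0.06, SE 0.07, edgeR adjusted p = 0.52). Ifi207 had 1506, 1452 and 1487 in KO against 1517.5, 1530.5 and 1614 in WT (log2 fold change -0.07, SE 0.11, edgeR adjusted p = 0.66). The KO libraries of Ifi207 all lay below the WT libraries, by less than the test could call.

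Ifi204 had 629.8, 592 and 577 normalized counts in KO, 56.6% of the WT mean (log2 fold change -0.82, SE 0.16, edgeR adjusted p = 0.00072). Mndal had 498, 495 and 474.5, 53.1% of the WT mean (log2 fold change -0.91, SE 0.09, edgeR adjusted p = 1.2e-06). Ifi209 had 646.5, 629.7 and 614, 55.7% of the WT mean (log2 fold change -0.84, SE 0.10, edgeR adjusted p = 6.9e-06). These 3 genes thus fell by a similar factor, with no overlap between the genotypes.

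Ifi211 and Ifi205, which share part of their sequence, fell further. Ifi211 had 211, 227 and 202 normalized counts in KO, 43.0% of the WT mean (log2 fold change -1.22, SE 0.11, edgeR adjusted p = 5.7e-07). Ifi205 had 31.4, 32.3 and 21.2, 32.1% of the WT mean (log2 fold change -1.63, SE 0.23, edgeR adjusted p = 5.7e-05). Ifi203 and Ifi213 were nearer to the threshold in the fit of all 12 libraries. Ifi203 had 612, 665 and 666.5 normalized counts in KO (log2 fold change -0.55, SE 0.19, edgeR adjusted p = 0.029), and Ifi213 had 20.6, 23.0 and 26.9 (log2 fold change -0.69, SE 0.25, edgeR adjusted p = 0.041). The highest KO library of Ifi213 was slightly above its lowest WT library, while the KO and WT libraries of Ifi203 did not overlap. Both genes lost their call when any of the 6 WT and KO libraries but replicate 2 of WT was left out. Adjusted p was then 0.051 to 0.12 for Ifi213 and 0.052 to 0.093 for Ifi203 in edgeR. With edgeR fitted on these 6 libraries alone, adjusted p was 1.1e-08 for Ifi203 (SE 0.05) and 0.016 for Ifi213 (SE 0.24).

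Ifi208 showed the largest fall of the 10 members in unstimulated cells, at very low counts. Its expected counts were 10.2, 11.1 and 17.5 in WT and 2, 0 and 2 in KO. The groups did not overlap, and the log2 fold change was -3.07 (SE 0.61, edgeR adjusted p = 0.00089). From the summed counts of 39 and 4, the level in KO was 9.18-fold lower (exact 95% interval 3.31 to 35.4, which covers counting error only), so the size of this fall is known poorly. The 6 libraries of this comparison took no part in the selection of Ifi208. Its p-value, however, rests on a spread estimated from all 12 libraries, including the WTLPS and KOLPS libraries used in the selection.

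**Figure D2:**
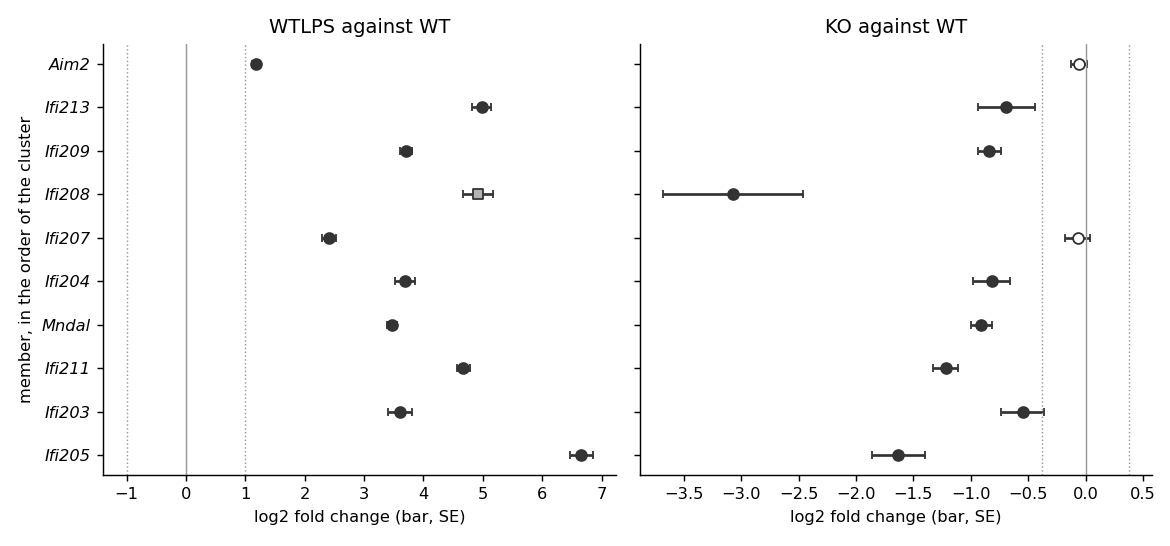
Log2 fold changes of the 10 members in the order of the cluster, for WTLPS against WT (left) and KO against WT (right). Bars show the SE, filled points genes called and open points genes not called. A grey square marks Ifi208 where its value is given without a call. Dotted lines mark the fold cutoffs of 2 and 1.3. The other 9 members are filled on the left, and Aim2 and Ifi207 are the open points on the right.

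In LPS-stimulated cells, Ifi208 stood apart from every other member. Its expected counts were 292, 339 and 263 in WTLPS and 5.09, 8.18 and 3.08 in KOLPS. The KOLPS mean of 6.11 normalized counts was 1.76% of the WTLPS mean of 347, and from the summed counts of 894 and 16 the level was 58.4-fold lower (exact 95% interval 35.7 to 102.6 for counting error). The KOLPS libraries of Ifi208 overlapped the unstimulated WT libraries, which had 9.33 to 15.2 normalized counts. This difference is what the cluster was picked for and has no test here.

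The other 9 members reached 73.9% to 99.5% of their WTLPS means in KOLPS. Of all genes tested, 24.5% had KOLPS libraries entirely below the WTLPS libraries and 21.9% entirely above, and 4 members were entirely below (Ifi208, Ifi209, Mndal and Ifi211) and none entirely above. Without KOLPS replicate 2 the count below was 7, and without WTLPS replicate 1 the count above was 1. Mndal had 7217, 7603 and 7774 normalized counts in KOLPS, 73.9% of the WTLPS mean. Ifi211 had 9264, 11380.4 and 10272 (81.4%), and Ifi209 had 11939, 13120.4 and 13288 (86.5%). The median log2 ratio of KOLPS to WTLPS was -0.28 over the members and -0.04 over all genes tested.

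In the remaining 6 members the WTLPS and KOLPS libraries overlapped. Aim2 had 2155, 2093 and 2134.5 normalized counts in KOLPS, and its mean was 99.5% of that in WTLPS. Ifi205 reached 96.1% (7351, 9688 and 8826) and Ifi207 92.1% (6902, 8486.5 and 7386). Ifi213, with the promoter closest to that of Ifi208, had 916.5, 1089 and 1030.0 normalized counts in KOLPS, 84.2% of its WTLPS mean. Ifi204 reached 79.0% and Ifi203 74.0%. Library 2 was the highest of the KOLPS libraries in Ifi204 and Ifi203, as library 1 was of the WTLPS libraries.

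**Figure D3:**
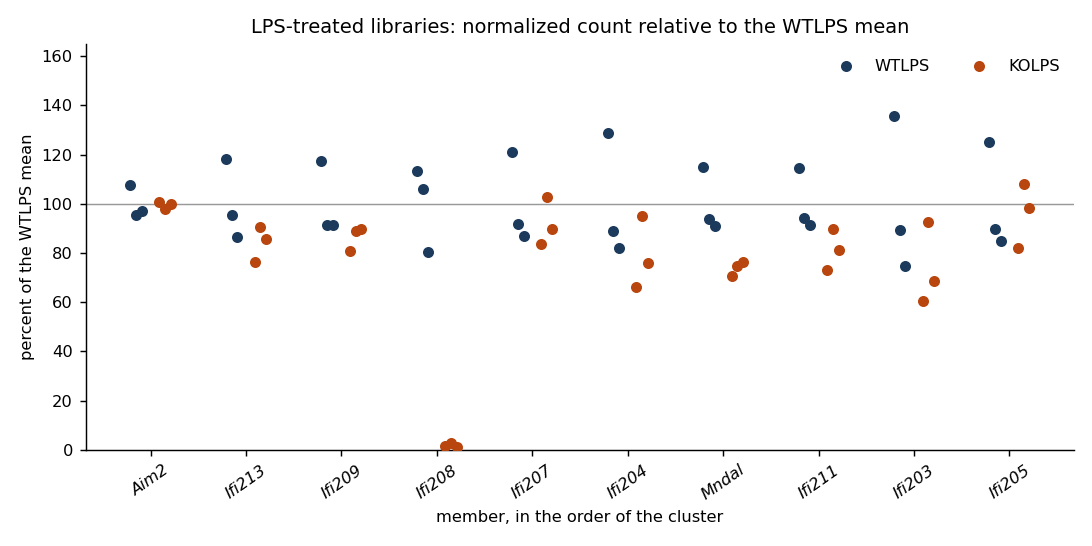
Normalized count of each member in the 3 WTLPS and 3 KOLPS libraries as a percentage of the WTLPS mean of that member, in the order of the cluster. The KOLPS means lie between 73.9% and 99.5% for 9 members and at 1.76% for Ifi208.

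Relative to unstimulated KO cells, all 10 members were higher in KOLPS without overlap, which 34.9% of all genes tested were, while 36.2% were entirely lower. The ratio of means was 2.36 for Aim2, 5.12 for Ifi207, 43.0 for Ifi213, 48.3 for Ifi211 and 304.8 for Ifi205. Ifi208 had the ratio 5.03, at counts of 0 to 2 in KO and 3.08 to 8.18 in KOLPS, where counting error alone allows 1.53 to 19.6. The median log2 ratio over the members was 4.06, and WT, WTLPS, KO and KOLPS libraries are shared between these comparisons and those above, so the ratios are not independent of each other. In bulk RNA, fewer cells that express a gene and less RNA per cell cannot be told apart.

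Levels of different members were compared per length, as TPM. In unstimulated WT cells Aim2 was the highest, at 106.7 ± 8.72 TPM (SD, n = 3), followed by Mndal at 81.1 ± 2.55, Ifi204 at 52.0 ± 3.37 and Ifi207 at 46.5 ± 1.02. Ifi209, Ifi203 and Ifi211 had 34.4 ± 2.17, 32.4 ± 1.36 and 30.5 ± 1.94 TPM, and the libraries of these neighbours in the order overlapped. Ifi205 (5.37 ± 0.71), Ifi213 (1.79 ± 0.375) and Ifi208 (0.41 ± 0.147) were the lowest.

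After LPS the order changed. In WTLPS, Mndal (579.8 ± 117.9 TPM) and Ifi211 (541 ± 83.1) led, Ifi205 had moved up to 383 ± 82.7, and Aim2, at 156 ± 33.6, was below 7 other members. In KOLPS, Ifi211 (431.5 ± 36.3), Mndal (393 ± 36.1), Ifi205 (368 ± 29.2) and Ifi204 (354 ± 66.1) formed an order in which the libraries of neighbours overlapped. Ifi208 was the lowest member in each of the 4 groups and made up 0.287% of the summed TPM of the members in WTLPS and 0.00659% in KOLPS. In KO, Aim2 (101.0 ± 3.74) made up 37.5% of the summed TPM, against 27.2% in WT.

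For every member but Ifi208, the order of the group means was WTLPS, KOLPS, WT and KO, on both scales. In normalized counts the WTLPS and KOLPS libraries overlapped in 6 of these 9, and without WTLPS replicate 1 the log2 ratio of KOLPS to WTLPS turned to 0.05 for Aim2, 0.04 for Ifi207 and 0.14 for Ifi205. For Ifi208 it was WTLPS, WT, KOLPS and KO. The TPM of Aim2 was less even than its count, at 195, 137 and 135 in WTLPS and 124.5, 188.5 and 113.7 in KOLPS. The effective length that RSEM gave Aim2 varied from 712 to 1202 bases among the KOLPS libraries, and its annotated transcripts range from 326 to 2839 bases. Its counts do not depend on that length.

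The members are paralogs, and reads that fit several of them were divided by RSEM. All 100-base stretches of the GENCODE M21 transcripts of each member were searched in the transcripts of all other genes, 100 bases being the read length. None of those of Aim2 occurred elsewhere, and its expected count was whole in all 12 libraries. Ifi207 (0.79%), Ifi203 (2.84%), Ifi213 (3.3%), Ifi208 (5.92%) and Mndal (6.38%) shared few. Ifi204 shared 10.7%, Ifi205 15% and Ifi209 16.9%.

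Ifi211 was the least certain member, since 56.9% of its stretches also occurred in another gene, chiefly Ifi205 (37.2%) and Ifi204 (19.6%). For Ifi208, the shared stretches were those of Ifi213 (3.22%) and Ifi206 (3.1%), so reads of either could add to its few counts in KO and KOLPS. Its counts were not whole in 9 of 12 libraries. The sum over the members keeps reads that were divided among them, and it was 7192 ± 313 normalized counts in WT, 83686 ± 16035 in WTLPS, 5018 ± 66.1 in KO and 69290.4 ± 7681 in KOLPS. The summed level rose 11.6-fold with LPS in WT, and that of KO was 69.8% of that of WT.

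Other genes that the annotation places inside the cluster were also higher in both LPS-stimulated groups than in unstimulated cells. Ifi206, a PYHIN gene next to Aim2, had 32.0 ± 0.939 normalized counts in WT, 1134 ± 115 in WTLPS, 20.1 ± 2.95 in KO and 971 ± 113 in KOLPS, and was called in both tested comparisons (edgeR adjusted p = 3.4e-13 and 0.017). Ifi214, which shares stretches with Ifi209, had 14.1 ± 2.08, 357.5 ± 100.1, 6.07 ± 1.99 and 227 ± 66.4, and its difference between KO and WT did not pass (edgeR adjusted p = 0.067). Both reached a large part of their WTLPS level in KOLPS, with overlap of the libraries. The pseudogene Ifi203-ps had 11.2 ± 1.78 normalized counts in WT and 2.86 ± 0.074 in KO (edgeR adjusted p = 0.0054), and 208 ± 61.8 in WTLPS and 119 ± 14.5 in KOLPS, without overlap. Ifi202b was at 0 counts in all 6 unstimulated libraries and had 12 to 16 in WTLPS and 7 to 12 in KOLPS. The pseudogene Gm18445 had 2.03 to 4.06 expected counts in WT and 0 in every KO library (edgeR adjusted p = 0.011), and 101 ± 15.2 normalized counts in WTLPS and 71.7 ± 21.9 in KOLPS. Gm18752, the pseudogene beyond the end of Ifi208, had at most 4.26 counts in any library, and Gm7871 and the other annotated genes of the interval were at or near 0.

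The genes at the left edge of the cluster and to the left of it were higher in KO than in WT, unlike the members. Cadm3, a cell adhesion gene that overlaps Aim2 on the opposite strand, had 2 to 8 expected counts in WT, 5 to 9 in WTLPS, 63 to 84 in KO and 92 to 133 in KOLPS (KO against WT log2 fold change 3.76, SE 0.32, edgeR adjusted p = 3e-07). Whether reads were counted by strand is not given in the sources used here. However, no 100-base stretch of the GENCODE M21 transcripts of Aim2 occurred in another gene on either strand. The Cadm3 counts are also few beside the 945 to 2004 counts of Aim2. Ackr1, a chemokine receptor gene 17.1 kb to the left, had 0 or 1 counts in WT and 4 to 11 in KO. Much further left, at 717.9 and 760.3 kb, Dusp23 and Slamf8 were also higher in KO. Their log2 fold changes were 1.53 and 2.27 (edgeR adjusted p = 3.7e-05 and 9.1e-11). To the right of Ifi205, the olfactory receptor gene Olfr433, 8.9 kb away, had 8 to 10 counts in WT, 31 to 47 in WTLPS, 0 to 2 in KO and 9 to 17 in KOLPS, and was called higher with LPS and lower in KO (edgeR adjusted p = 4e-05 and 0.0036). Olfr432, 17.4 kb away, had 19.6 to 23.2 counts in WTLPS and 9 to 10.9 in KOLPS. It was called higher with LPS (log2 fold change 4.31, edgeR adjusted p = 5.1e-06) and was not called in KO (-1.57, edgeR adjusted p = 0.28).

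Fixed lists of genes from the pathways around these sensors were counted in the same fit. The shares over all genes tested are those given above, 12.6% higher and 9.99% lower with LPS, and 17.3% higher and 17.2% lower in KO. The list of 9 genes around the AIM2 inflammasome also held genes of other inflammasomes, such as Nlrp3. Of the 9, 5 were called higher in WTLPS than in WT and none lower. In KO, 1 was called higher than in WT and 4 lower (Casp4, Gsdmd, Il18 and Nlrp3). The median log2 fold change of the list was 1.03 with LPS and -0.17 in KO. The adaptor gene Pycard was not called in either comparison (log2 fold changes -0.21 and 0.04), nor was Casp1 in KO (0.10). Il1b, which encodes a cytokine that caspase-1 cleaves, rose most with LPS (4.78) and was the gene of the list called higher in KO (1.29), whereas Il18, its relative, had the lowest value in KO (-1.61). Nlrp3, the sensor of another inflammasome, also fell in KO (-1.26).

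Of 8 measured genes of cytosolic DNA sensing by cGAS and STING, 5 were called higher with LPS and none lower, and 2 were called higher and 3 lower in KO. Cgas, the DNA sensor that makes the messenger cGAMP, rose with LPS (log2 fold change 1.79) and fell in KO (-1.02), and the nuclease gene Trex1 did likewise (2.40 and -0.89). Tmem173, which encodes STING, was not called in either comparison (-0.23 and -0.17). Of 13 genes of the type I interferon loop, 9 were called higher with LPS, and 7 were called lower and 1 higher in KO. Irf9 and Stat2, which encode parts of the factor that binds ISRE elements, fell in KO by 0.92 and 1.11 on the log2 scale. Ifnb1, the interferon-beta gene, had 3.17 normalized counts on average in WT and was at 0 in KO, so no fold is given for it, and its mean was 149 in WTLPS and 118 in KOLPS with overlap.

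All 24 interferon-stimulated genes outside the cluster were called higher in WTLPS, with a median log2 fold change of 3.80 against 3.70 for the members. In KO, 16 of the 24 were called lower and 2 higher, with a median of -0.68. Oas2 and Oas3, which encode RNA-activated synthetases, had the lowest values in KO (-2.46 and -2.00), and Ifih1, the gene of the RNA sensor MDA5, had the highest (1.09). In KOLPS, 11 of the 24 lay entirely below WTLPS and 3 entirely above, against 24.5% and 21.9% of all genes tested. The corresponding counts below were 5 of 9 for the inflammasome list, 7 of 8 for DNA sensing and 7 of 13 for the interferon loop, with none above. Oas2 had 465 normalized counts on average in KOLPS against 1103 in WTLPS, which is the same direction as Ifi208 at a much smaller factor.

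**Figure D4:**
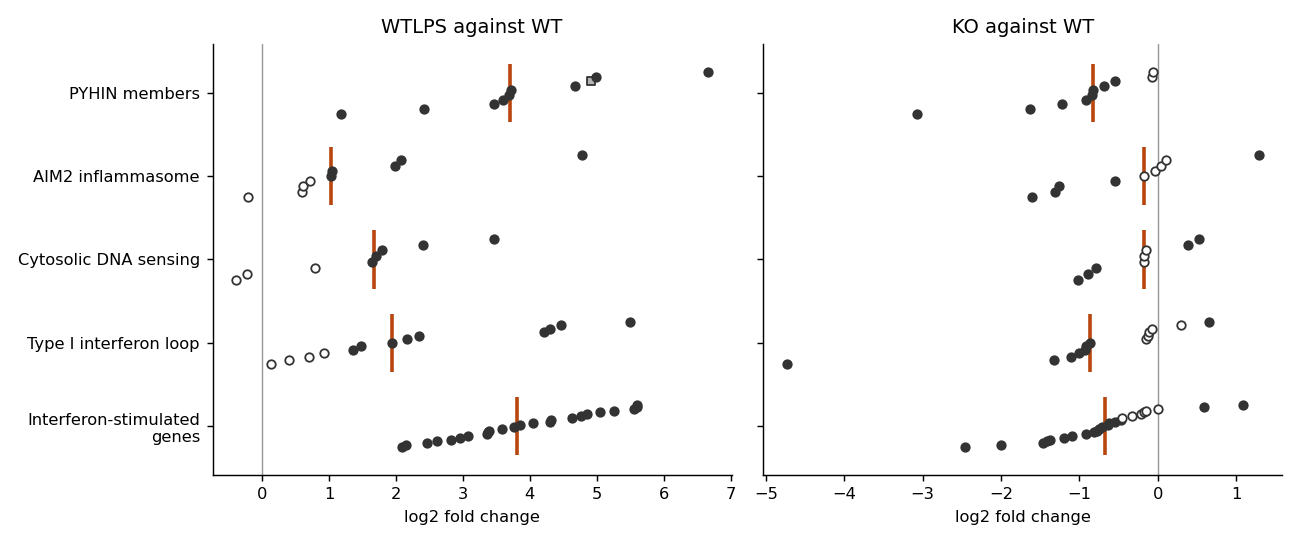
Log2 fold changes of the 10 members and of the genes in 4 fixed pathway lists, for WTLPS against WT (left) and KO against WT (right). Filled points are genes called, open points genes not called and vertical bars the medians. A grey square marks Ifi208 where its value is given without a call. The medians of the members (3.70 and -0.84) lie close to those of the 24 interferon-stimulated genes (3.80 and -0.68).

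Markers of other cell types moved between the genotypes. The summed normalized count of 5 neutrophil markers was 1040 to 1140.0 in WT and 573 to 662.5 in KO, that of 5 macrophage markers 16024 to 17300.4 in WT and 24809 to 25704 in KO, and that of the 10 BMDC markers 155249 to 163864 in WT and 136876 to 138296 in KO. The macrophage sum was carried by Csf1r, which rose in KO, while 3 of the 5 macrophage markers fell. Of the 10 BMDC markers, 4 were called lower and 1 higher in KO, with a median log2 fold change of -0.08. Of 3 plasmacytoid DC markers tested, 1 was called lower and 1 higher in KO. The summed count of 4 T cell markers was 17.3 to 20.1 in WT and 1.92 to 8.97 in KO, where Cd8a fell (log2 fold change -2.71), and that of 3 mast cell markers was 146 to 168.5 in WT and 39.8 to 61.9 in KO, where Kit fell (-1.51). The mast cell marker Mcpt4 was at 0 throughout, and the summed B cell markers were at most 25.5 normalized counts in any library. The part of these differences in the lower counts of the cluster in KO was not tested.

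The genes whose pattern was most like that of Ifi208 lay on other chromosomes. Pearson's r of log2(normalized count + 1) over the 12 libraries, which fall into 4 groups of 3, was computed for 9338 genes with at least 100 normalized counts on average. It was 0.986 for Mmp14, a membrane-bound metalloproteinase gene, 0.985 for Dram1, 0.981 for Irak2, a kinase gene of Toll-like receptor signalling, and 0.978 for Xylt2 and Agtrap. Mmp14 had 2893 ± 33.1 normalized counts in WT, 6017 ± 377 in WTLPS, 2113 ± 82.1 in KO and 2839 ± 74.2 in KOLPS. Within the cluster, r with Ifi208 was lowest for Aim2 (0.598) and highest for Mndal (0.691), whereas r between any pair of the other 9 members was at least 0.985. The 12 libraries include those of WTLPS and KOLPS, for which Ifi208 was picked. These values of r therefore partly restate that selection.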

How the data were processed

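RNA was sequenced as paired-end reads from 12 BMDC libraries, grouped by their titles into WT, WTLPS, KO and KOLPS with replicates 1 to 3 each. Reads were trimmed by the authors (Trim Galore), aligned with STAR to mm10 (STAR 2.5.1 in the submitters' processing notes) and quantified genes with RSEM. The authors deposited an expected count per gene, an estimated count that can be fractional, and a TPM, whose sum is fixed and holds no information on depth. Effective lengths deposited by the authors were read for Aim2. The strand setting and GENCODE release are not given in the sources used here. The methods name poly(A) selection with a stranded kit and the labels name depletion of ribosomal RNA. Gene positions are those of GENCODE M21, to which 54587 identifiers matched with their version and 55154 without it.

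Rounded expected counts were fitted with edgeR 4.0.16 in R 4.3.3 (TMM, filterByExpr by group, glmQLFit and glmQLFTest) in 1 fit of the 12 libraries without covariates, with Benjamini-Hochberg adjustment over the 14008 genes tested. Calls needed an adjusted p under 0.05 and the study's fold cutoff, 2 for LPS and 1.3 for KO against WT. Normalized counts were scaled to the mean effective library size. Comparisons with KOLPS were described without a test. The members and lists were chosen with earlier results of these data known. The text names the 10 members, other genes of the interval, the 3 nearest tested protein-coding genes on either side, Ctcf, the 5 genes most like Ifi208, and for each list its largest rise and fall and genes with a stated role. Some genes that this rule names are not reported here. The fits were tested on simulated data. Depth was 12769773 to 16586334 counts per library, and intervals cover counting error only. P-values rest on the spread between libraries within groups, of which the 4 groups shared 1 estimate per gene. Pairs of replicates were not identical, and chi-square divided by its degrees of freedom was 1.655 to 77.9. Alternatives were DESeq2 1.42.0, edgeR on 6 libraries, DESeq2 size factors, no filter, at least 10 counts in 3 libraries, limma 3.58.1 on log2(TPM + 1) or log2(TPM + 0.1), the replicate block, no fold cutoff, and leaving out each replicate. Figures were drawn with matplotlib 3.10.9.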

Additional observations from a re-analysis of the deposited data

How the results depend on the processing

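The 9 members other than Ifi208 stayed called higher in WTLPS than in WT under each alternative but limma on log2(TPM + 1) and on log2(TPM + 0.1), where Aim2, at log2 fold changes of 0.52 and 0.53, fell under the fold cutoff. The median log2 ratio of all genes in this comparison was -0.53 in TPM and -0.02 with TMM, and limma on log2(TPM + 1) called 770 genes higher and 1975 lower, against 1766 and 1400 in the edgeR fit (941 and 3087 on log2(TPM + 0.1)). In KO against WT, the number of members called lower was 6 to 8 with each replicate left out and 7 or 8 otherwise, and limma on log2(TPM + 1) called 1556 of all genes higher and 2524 lower, against 2427 and 2405. Without a fold cutoff the counts over all genes were 4209 higher and 4224 lower for LPS, and 3110.0 and 3131 for KO. Ifi213 lost its call without WT replicate 1 or 3 or without KO replicate 1, 2 or 3 (adjusted p of 0.0083 to 0.12 over the replicates left out), and in limma on log2(TPM + 1). Ifi203 lost its call without the same 5 libraries (adjusted p of 0.043 to 0.093), and in edgeR on 6 libraries its adjusted p was 1.1e-08. The log2 fold change of Ifi208 was -0.42 in limma on log2(TPM + 1), because the added 1 exceeds its TPM in WT and KO, and -3.44 to -2.56 with replicates left out. The number of members entirely below WTLPS in KOLPS was 4 to 7 with each replicate left out, 7 without KOLPS replicate 2, and the number entirely above was 0 to 1, 1 without WTLPS replicate 1. Without WTLPS replicate 1 the log2 ratios of Aim2, Ifi207 and Ifi205 turned to 0.05, 0.04 and 0.14, and without KOLPS replicate 1 that of Ifi205 turned to 0.05. That of Ifi208 stayed between -6.31 and -5.53 over all replicates left out. Replicate numbers 1 to 3 occur in every group, but deviations from the group means were not shared by equally numbered libraries (correlations of -0.287 to 0.113), so these were not treated as pairs. With the replicate block, the 9 members other than Ifi208 were called higher with LPS and 7 lower in KO, with Ifi213 losing its call (adjusted p = 0.055). At this depth Ifi208 in KO, with 0 to 2 counts a library, was under the 3 counts taken as the floor.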
